A study of Mus musculus with 16 samples.

Results

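The genes described here were 38 symbols for DNA replication and mitosis, 18 chosen for S phase and 20 for G2 phase and mitosis (G2/M), and their members were all array probes that the platform annotation names with these symbols. Of the 38 symbols, 34 were matched, to 55 probes, out of 16593 genes named on the array, whereas Gins2, Mki67, Ccnb1 and Aurkb were not analysed here. Transcript levels were measured on Illumina MouseRef-8 BeadChips in 16 single FVB/n embryos at E9.5, 4 in each of the groups formed by genotype (wildtype or MommeD1) and sex. MommeD1 embryos were homozygous for a chemically induced (ENU) nonsense allele of Smchd1, a chromosomal protein needed for X inactivation, and wildtype and mutant embryos came from matings between heterozygous parents. Each array is 1 whole embryo, so a level is an average over all its tissues, and fewer cells of a type cannot be told apart from less RNA per cell.

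A dividing cell copies its DNA in S phase and separates the copies in mitosis. The MCM proteins form the ring-shaped helicase that Cdc6 and Cdt1 load at replication origins, cyclin E (Ccne1, Ccne2) and the factor E2f1 drive entry into S phase, and Pcna, Rfc4 and Fen1 act at the replication fork while Rrm1, Rrm2 and Tyms make its nucleotides. Cdk1 with its cyclins, the kinases Plk1 and Aurka, the motor Kif11, the spindle checkpoint proteins Bub1b and Mad2l1 and the anaphase activator Cdc20 then carry the cell through mitosis. The early postimplantation embryo is known for rapid division, and most of these transcripts are known to rise and fall with the cycle. S phase genes are known as targets of E2F factors, which bind an E2F site, and G2/M genes as targets of a complex that binds the cell cycle homology region (CHR), often beside a CCAAT box.

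The classes differed in these promoter motifs. As such genes were already known as targets through these motifs, the difference is not independent evidence. RefSeq promoter windows (build GRCm38.p6, 250 bases before and 50 bases after a gene's start) were found for 30 members, 15 of each class, and Fen1 and Mcm7 had 2 windows each. The CHR (TTTGAA, either strand) was in 11 of 15 G2/M windows (73.3%) and in 2 of 17 S phase windows (11.8%), against 17.9% of all 32851 promoter windows and 11.5% of those of the genes tested on the arrays. The CCAAT box (CCAAT, either strand) was in 14 of 15 G2/M windows (93.3%), all but that of Mad2l1, and in 9 of 17 S phase windows (52.9%), against 37.4% of all windows. The E2F site (TTT, then CC, CG, GC or GG, then CGC, either strand) was in 6 of 17 S phase windows (35.3%) and in 1 of 15 G2/M windows (6.67%), that of Cdk1, against 2.26% of all windows. A CHR and a CCAAT box together were in 11 of 15 G2/M windows (73.3%), 1 of 17 S phase windows (5.88%) and 6.95% of all windows. Among windows of the genes tested, 39.0% had a CCAAT box, 4.16% an E2F site and 4.89% a CHR and a CCAAT box together. These are matches of letters, and members were not drawn at random, so no test was applied. In the 150 bases of each window nearest the start, the CHR was still in 11 of 15 G2/M windows, and in 1 of 17 S phase windows.

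**Figure D1:**
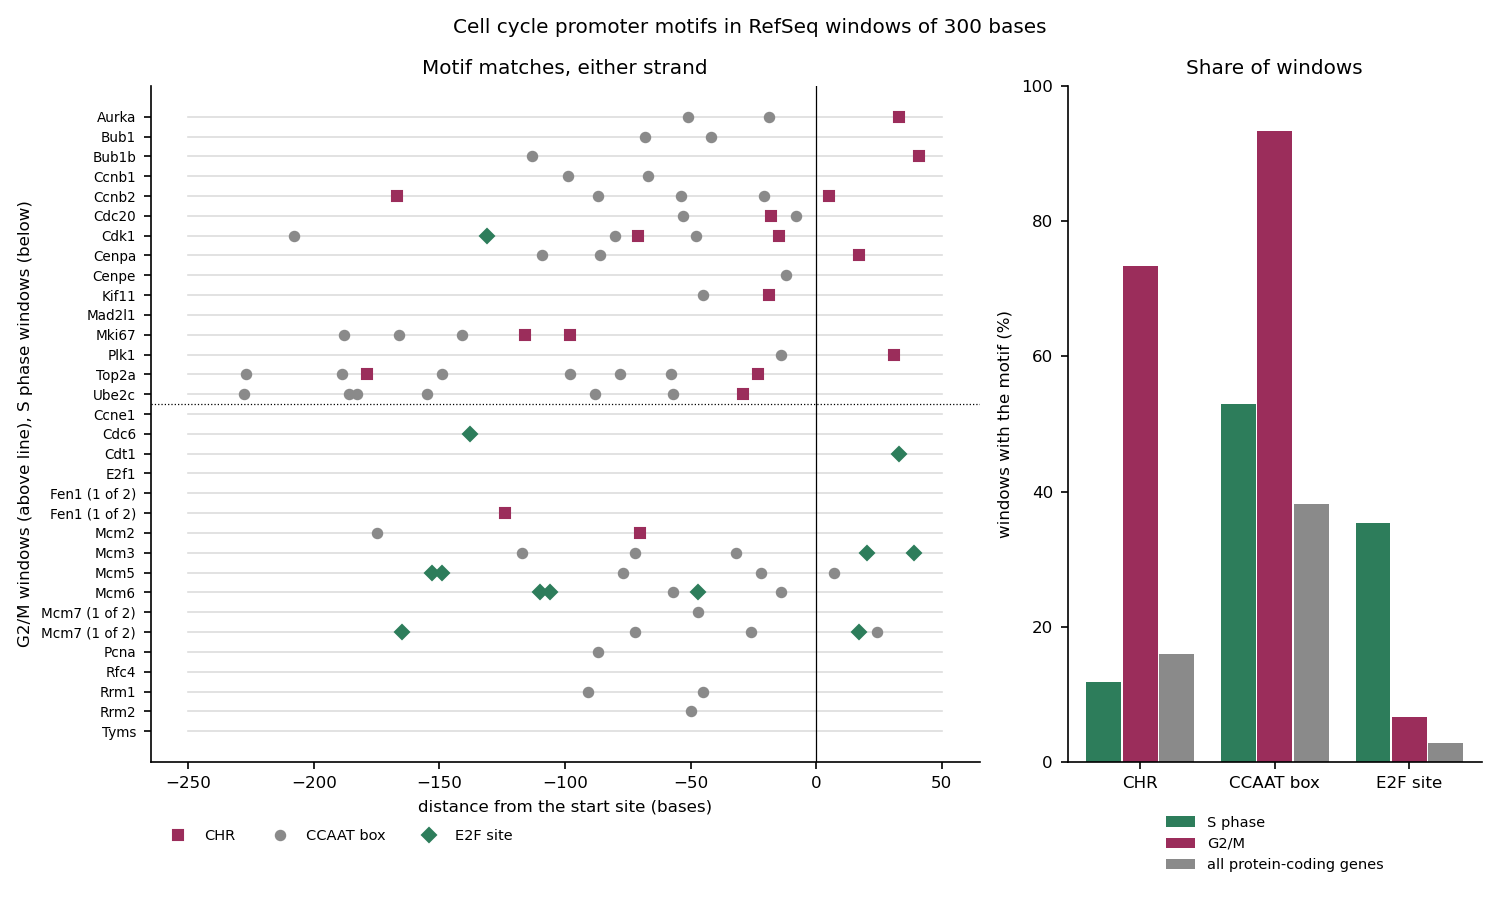
Left, distance in bases from the start site of each match to the CHR (purple squares), the CCAAT box (grey circles) and the E2F site (green diamonds) in the windows of 15 G2/M and 15 S phase members (Fen1 and Mcm7 have 2 windows). Right, percentage of windows with each motif in S phase members, G2/M members and all protein-coding genes; the CHR is in 73.3% of G2/M windows and the E2F site in 35.3% of S phase windows.

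The windows of 4 members are shown because these genes carry the expression results below or the clearest form of a motif, with matches in capitals. Plk1 (chr7:122159185-122159484, plus strand) has a CCAAT box starting 14 bases before the start site and a CHR 31 bases after it. Kif11 (chr19:37376132-37376431, plus strand) has the reverse complement of both, the CCAAT box at position -45 and the CHR at position -19. Mcm6 (chr1:128359656-128359955, minus strand) has 3 E2F matches, of which the matches at -110 and -106 overlap and are shown as 1 stretch, and 2 CCAAT boxes. Ccne1 (chr7:38107441-38107740, minus strand) has no match to these letters in this window.
Plk1: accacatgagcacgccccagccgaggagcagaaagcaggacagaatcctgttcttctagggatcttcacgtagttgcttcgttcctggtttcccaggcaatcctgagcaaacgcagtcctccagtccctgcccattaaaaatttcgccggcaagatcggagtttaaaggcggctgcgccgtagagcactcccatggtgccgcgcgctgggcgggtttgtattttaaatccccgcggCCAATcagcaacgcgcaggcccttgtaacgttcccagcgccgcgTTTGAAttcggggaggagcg
Kif11: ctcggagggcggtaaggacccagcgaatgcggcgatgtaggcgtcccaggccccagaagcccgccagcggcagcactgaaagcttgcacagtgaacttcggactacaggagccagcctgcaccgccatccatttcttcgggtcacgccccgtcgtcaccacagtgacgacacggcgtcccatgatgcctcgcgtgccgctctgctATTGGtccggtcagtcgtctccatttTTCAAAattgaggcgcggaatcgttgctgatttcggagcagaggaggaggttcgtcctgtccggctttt
Mcm6: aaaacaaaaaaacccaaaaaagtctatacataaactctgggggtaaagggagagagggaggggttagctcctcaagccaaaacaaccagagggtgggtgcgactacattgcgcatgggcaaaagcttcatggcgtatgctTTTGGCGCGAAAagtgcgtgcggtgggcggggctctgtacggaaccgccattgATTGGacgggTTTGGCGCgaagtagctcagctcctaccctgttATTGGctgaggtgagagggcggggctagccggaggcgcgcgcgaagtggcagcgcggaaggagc
Ccne1: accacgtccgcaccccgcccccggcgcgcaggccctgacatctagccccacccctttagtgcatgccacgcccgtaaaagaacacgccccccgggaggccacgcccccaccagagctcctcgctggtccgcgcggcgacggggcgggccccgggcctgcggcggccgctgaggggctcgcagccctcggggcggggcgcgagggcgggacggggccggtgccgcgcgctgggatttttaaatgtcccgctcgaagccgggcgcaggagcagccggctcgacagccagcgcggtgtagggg

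The values analysed were the authors' normalised log2 intensities. A probe was tested when its value was above 7 on at least 4 of the 16 arrays, and a gene was its brightest such probe, which left 6999 genes. All 17 matched S phase members and 11 of the 17 matched G2/M members passed. The other 6 G2/M members were Ccna2 and Ccnb2, the cyclin partners of Cdk1, the checkpoint kinase Bub1, the motors Cenpe and Kif20a, and the ubiquitin-conjugating enzyme Ube2c. Their single probes had array means between 5.69 (Ccnb2) and 6.31 (Ube2c), below the median of all probes (6.34), and none was above 7 on any array. These 6 dim probes give no usable measure of those genes, and the statements below cover 28 members. Among the members tested, every probe that stands for a gene was above 7 on all 16 arrays, with mean log2 values from 7.76 for Pcna to 13.55 for Cenpa, the histone variant of the centromere. A brightness depends on the probe, so levels were not compared between genes.

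The 16 arrays lay on 2 chips of 8, each carrying 2 arrays of every group, with replicates 1 and 2 on chip 1 and replicates 3 and 4 on chip 2. The Smchd1 probe checked the genotype labels, with log2 values of 9.72 to 9.98 in the 8 wildtype and 7.34 to 7.60 in the 8 MommeD1 embryos. Yolk sac endoderm transcripts (7 of 13 listed genes tested) stood high in 3 arrays, called yolk-sac-rich below, where the mean log2 value over the list was above its mean over arrays by 2.48 (MommeD1 female 2), 1.39 (MommeD1 male 1) and 1.33 (wildtype male 3). Over the groups this score ran from -0.66 to 0.67 in wildtype females, from -1.09 to 2.48 in MommeD1 females, from -1.11 to 1.33 in wildtype males and from -1.09 to 1.39 in MommeD1 males, and its part in the results was not tested. Results that rest on these arrays are given with and without them.

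Replication and mitosis transcripts differed between the genotypes in females by about as much as other genes did. The median size of the log2 difference was 0.09 over the 28 members and 0.09 over all genes. Plk1, the kinase that drives mitotic entry and spindle assembly, was lower in MommeD1 females, and none of the other 27 members passed the test. Kif11, Bub1b and Ccne1 had the next lowest differences and Mcm6 the highest, none past the threshold. Differences were tested with limma on all 16 arrays, with Benjamini-Hochberg adjustment over 6999 genes and a threshold of 0.05. In females 523 of 6999 genes (7.47%) passed, and 1 of 28 members (3.57%). Of all genes, 3.33% were called lower. The unadjusted limma p was under 0.05 for 6 of 28 members (21.4%) and 25.0% of all genes.

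The 4 wildtype females had Plk1 log2 values of 12.21, 12.18, 12.26 and 12.20, and the 4 MommeD1 females had 11.9985, 11.90, 12.07 and 11.95. Each MommeD1 female was below each wildtype female, and the lowest of them was MommeD1 female 2. The log2 difference was -0.23 ± 0.05 (SE, n = 4 per group), 1.17-fold lower, with a limma adjusted p of 0.0152. The direction held within chip 1 (-0.25) and within chip 2 (-0.22), where 2 arrays per group gave limma adjusted p-values of 0.269 and 0.231. MommeD1 female 2 was also the array with the most yolk sac endoderm transcript. Without it the difference was -0.21 and the limma adjusted p was 0.0511, so that the call, but not the direction, depends on this array. In that fit 311 of all genes passed, against 523 with all arrays. With all 3 yolk-sac-rich arrays left out the difference was -0.21 with a limma adjusted p of 0.0576.

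Kif11, the kinesin that pushes the spindle poles apart, had log2 values of 9.57, 9.40, 9.55 and 9.46 in wildtype females and 9.42, 9.26, 9.27 and 9.23 in MommeD1 females. Only MommeD1 female 1 reached the wildtype range, and the difference of -0.20 ± 0.06 (SE) just missed the threshold (limma adjusted p = 0.0504). It passed with the chip as a block (limma adjusted p = 0.0447) and with a stricter filter (limma adjusted p = 0.0372). It missed the threshold in 8 of 12 such alternatives and in 13 of 16 fits that left out 1 array. Bub1b, a kinase of the spindle assembly checkpoint, had 10.05, 10.04, 10.18 and 9.96 in wildtype females against 9.89, 9.92, 9.70 and 9.93 in MommeD1 females. The groups did not overlap, but the gap between them was narrow, and the difference of -0.20 ± 0.06 (SE) did not pass (limma adjusted p = 0.0618), although it did with the stricter filter and with trended and robust moderation.

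Ccne1, the cyclin E that activates Cdk2 at the start of S phase, had log2 values of 9.33, 9.29, 9.24 and 9.31 in wildtype females and 9.21, 9.19, 9.07 and 8.97 in MommeD1 females. These groups did not overlap either, and the difference was -0.18 ± 0.07 (SE, limma adjusted p = 0.113). Both MommeD1 females on chip 2 were lower than both on chip 1, and with the chip as a block Ccne1 passed (limma adjusted p = 0.0418). It missed the threshold in 11 of 12 such alternatives and in all 16 fits that left out 1 array. Mcm2, a helicase subunit, had 11.02, 10.88, 11.06 and 10.92 in wildtype and 10.93, 10.85, 10.80 and 10.77 in MommeD1 females, a difference of -0.13 ± 0.05 (SE, limma adjusted p = 0.139). Its groups overlapped through MommeD1 female 1. Mcm6, another subunit of the same helicase, leaned the other way at 0.19 ± 0.08 (SE, limma adjusted p = 0.143), with 11.69, 11.68, 11.66 and 11.85 in wildtype and 11.83, 11.89, 11.85 and 12.08 in MommeD1 females. One wildtype female, on chip 2, reached the MommeD1 range.

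**Figure D2:**
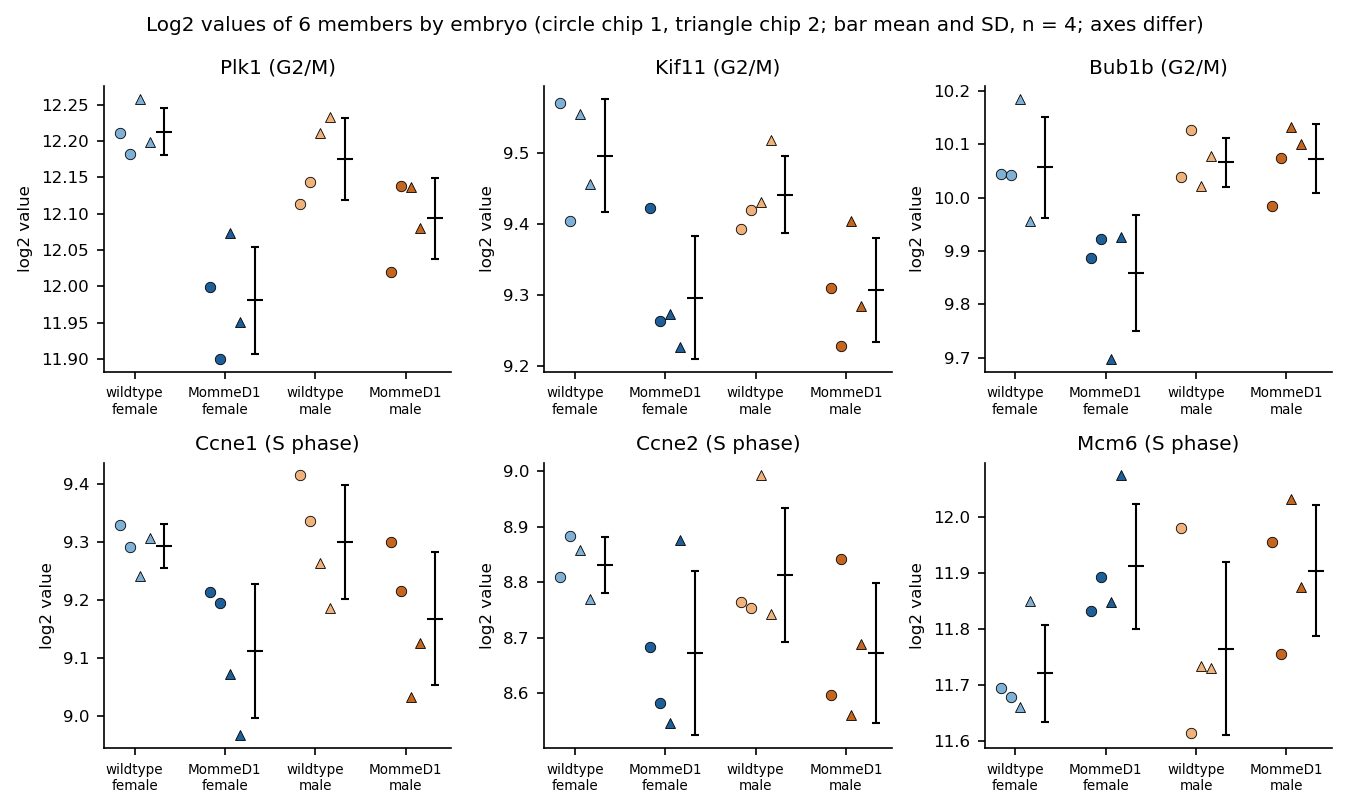
Normalised log2 values of Plk1, Kif11, Bub1b, Ccne1, Ccne2 and Mcm6 in each embryo (points; circles chip 1, triangles chip 2) with the mean and SD of each group of 4 (bars), on axes that differ between panels and do not start at 0. Plk1 lies between 12.18 and 12.26 in wildtype females and between 11.90 and 12.07 in MommeD1 females.

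Members whose female groups did not overlap were 3 of 28 (10.7%), namely Plk1, Bub1b and Ccne1, all lower in MommeD1, while 15.1% of all genes tested did not overlap and 7.96% did so with MommeD1 lower. In males no member's groups failed to overlap, against 6.32% of all genes. The share of members was below that of all genes in both sexes, but above it in females for groups lower in MommeD1. With 28 members, these small counts were not read as a difference from all genes. Their precision was close to that of other genes, with a median SD within groups of 0.087 on the log2 scale over the 28 members and 0.103 over all genes. The 95% intervals of the female differences, not adjusted for their number, lay within -0.35 and 0.41 for all 28 members, so each stayed inside 0.5 on the log2 scale (1.41-fold) on both sides of 0.

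In males none of the 28 members passed, and 8 of 6999 genes (0.114%) did. The unadjusted p was under 0.05 for 1 member, Kif11, at an unadjusted limma p of 0.0398 (limma adjusted p = 0.422), while 11.2% of all genes had a p this low. Wildtype males had Kif11 log2 values of 9.39, 9.42, 9.43 and 9.52 and MommeD1 males 9.31, 9.23, 9.40 and 9.29, a difference of -0.13 ± 0.06 (SE), and only MommeD1 male 3 lay within the wildtype range. Plk1 had 12.11, 12.14, 12.21 and 12.23 in wildtype and 12.02, 12.14, 12.14 and 12.08 in MommeD1 males, overlapping groups with a difference of -0.08 ± 0.05 (SE, 95% interval -0.20 to 0.03). Mad2l1, the checkpoint protein that holds back Cdc20, had 11.55, 11.57, 11.48 and 11.49 in wildtype and 11.62, 11.59, 11.56 and 11.73 in MommeD1 males. Only MommeD1 male 3 fell inside the wildtype range, and the difference was 0.10 ± 0.06 (SE, limma adjusted p = 0.546). The 95% intervals of all 28 members lay between -0.33 and 0.31 in males.

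Ccne1 and Ccne2, which encode the 2 E-type cyclins, had differences of similar size in both sexes. Ccne1 log2 values were 9.42, 9.34, 9.26 and 9.19 in wildtype and 9.30, 9.22, 9.03 and 9.13 in MommeD1 males, which overlapped, and the difference was -0.13 ± 0.07 (SE). Ccne2 had 8.81, 8.88, 8.86 and 8.77 in wildtype females and 8.68, 8.58, 8.55 and 8.88 in MommeD1 females, where 3 of 4 mutants lay below the wildtype range. In males it had 8.76, 8.75, 8.99 and 8.74 in wildtype and 8.60, 8.84, 8.56 and 8.69 in MommeD1, again with 3 of 4 mutants below. The Ccne2 differences were -0.16 ± 0.08 (SE) in females and -0.14 ± 0.08 (SE) in males, with limma adjusted p-values of 0.221 and 0.514.

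Whether the genotype difference depended on sex was tested as an interaction, which 25 of 6999 genes (0.357%) and none of the 28 members passed. An unadjusted limma p under 0.05 was found for 3 of 28 members (Bub1b, Fen1 and Mad2l1) and 7.93% of all genes. Bub1b had the lowest, with a female minus male difference of -0.20 (95% interval -0.39 to -0.02, limma adjusted p = 0.584). For Plk1 it was -0.15 (95% interval -0.31 to 0.01), so a sex dependence of Plk1 was not shown. Pcna was the only member whose interval for this interaction went past 0.5. Wildtype females and wildtype males differed in none of the 28 members (5 of 6999 genes passed, 0.0714%), and no member had an unadjusted limma p under 0.05 there, as 2.80% of all genes did.

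Averaged over both sexes, 3 of 28 members (10.7%) passed, and 770 of 6999 genes (11.0%), so that the share of members was close to the background. All 3 were lower in MommeD1, and 368 of all genes (5.26%) were called lower. They were the G2/M genes Kif11 (-0.17 ± 0.04, SE, limma adjusted p = 0.0195) and Plk1 (-0.16 ± 0.04, SE, limma adjusted p = 0.0154) and the S phase gene Ccne1 (-0.16 ± 0.05, SE, limma adjusted p = 0.0477). Kif11 and Plk1 passed whichever single array was left out, and Ccne1 failed without any 1 of 12 of the 16 arrays. Ccne1 also failed with each array centred on its median (limma adjusted p = 0.0511), and Mcm6, which was higher, was called beside these 3 with trended and robust moderation. With the 3 yolk-sac-rich arrays left out only Ccne1 passed, with Plk1 at -0.13 (limma adjusted p = 0.0828) and Kif11 at -0.16 (limma adjusted p = 0.0597).

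**Figure D3:**
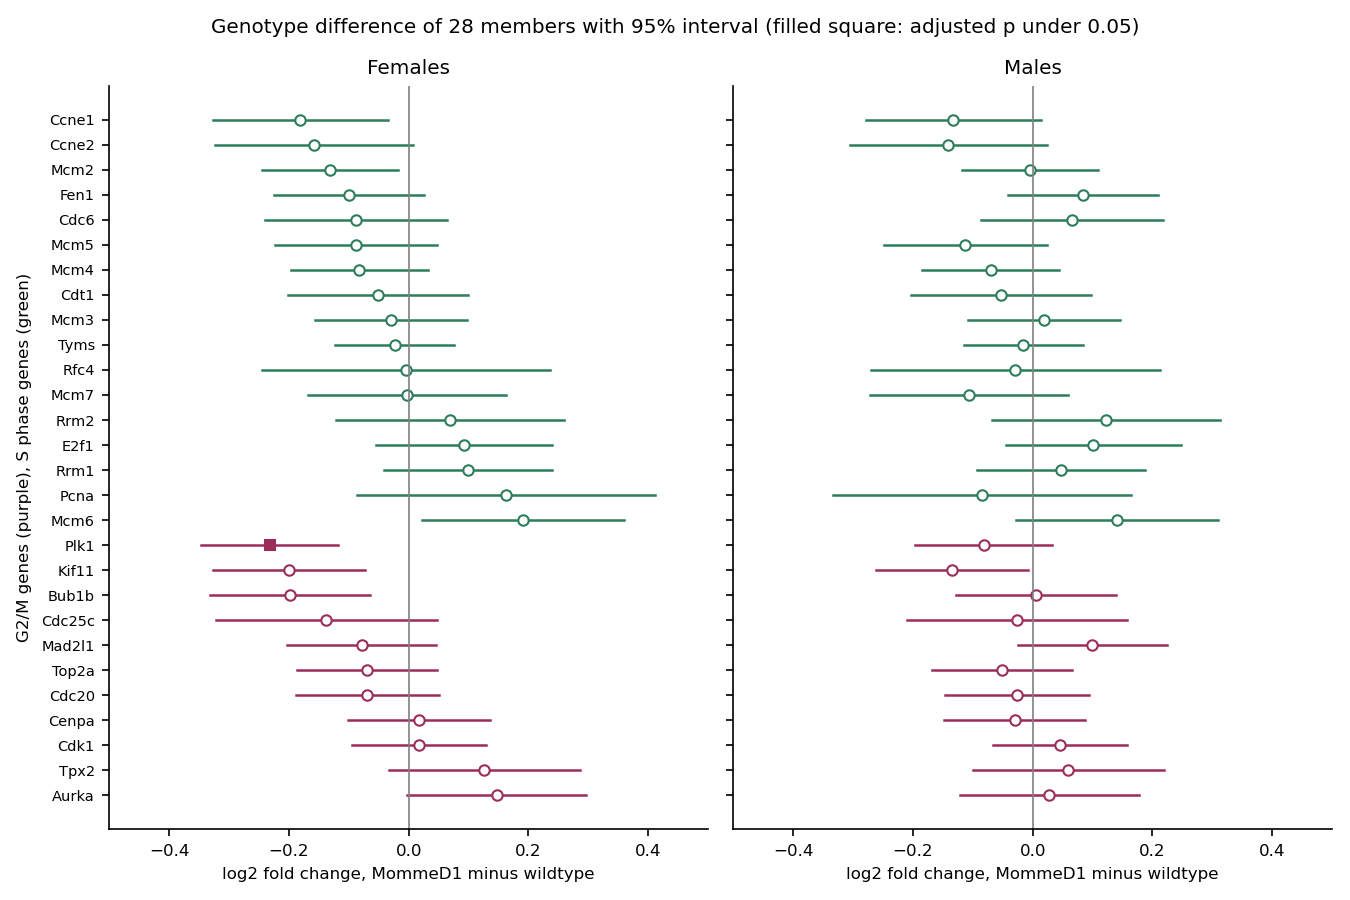
Log2 fold change of MommeD1 against wildtype embryos (x axis) in females (left) and males (right) for 11 G2/M members (purple) and 17 S phase members (green), with 95% intervals as lines and a filled square where the adjusted p was under 0.05. Plk1 in females is the one filled square, at -0.23, and no interval reaches 0.5 on either side of 0.

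S phase and G2/M members were set side by side. The median log2 difference in females was -0.03 over 17 S phase members and -0.07 over 11 G2/M members, against -0.0085 over all genes, and in males it was -0.02 and -0.03 against 0.0008. In females 12 of 17 S phase and 7 of 11 G2/M members had a difference below 0, and 52.4% of all genes did. Within the G2/M class the direction was not shared: Plk1, Kif11 and Bub1b had the lowest values, while Aurka, the centrosome kinase (0.15 ± 0.07, SE), and Tpx2, its spindle activator (0.13 ± 0.08, SE), were above 0 with limma adjusted p-values of 0.212 and 0.321. The S phase class also split, from Ccne1 with the lowest difference to Mcm6 with the highest. Mcm2 and Mcm6, subunits of the same helicase, lay on opposite sides of 0. Mcm6 was read by its brightest probe (0.19), and its other kept probes had 0.05 and -0.05. Of the 28 members, 14 had differences below 0 in both sexes, 7 above 0 in both and 7 of opposite sign.

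A score for each array averages over a class how far each gene's log2 value lay from that gene's own 16-array mean. The G2/M score was 0.01, 0.02, 0.07 and 0.02 in wildtype females and -0.02, -0.04, -0.03 and -0.04 in MommeD1 females, so each mutant was below each wildtype female. The difference was -0.06, at -0.04 for the chip 1 arrays and -0.08 for those of chip 2. Plk1 (-0.23), Kif11 (-0.20) and Bub1b (-0.20) weighed most in this difference. As 4 of the 11 members were above 0, the score does not show a shift of the whole class. In males the G2/M score overlapped (-0.02 to 0.04 in wildtype, -0.01 to 0.02 in MommeD1). The S phase score overlapped in both sexes, with differences of -0.02 in females and -0.01 in males. The S phase score minus the G2/M score ran from -0.08 to 0.04 in wildtype females and from -0.0032 to 0.06 in MommeD1 females, which overlapped, so that the classes were not separated by genotype. As the score is an average over chosen genes, it was given no test.

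**Figure D4:**
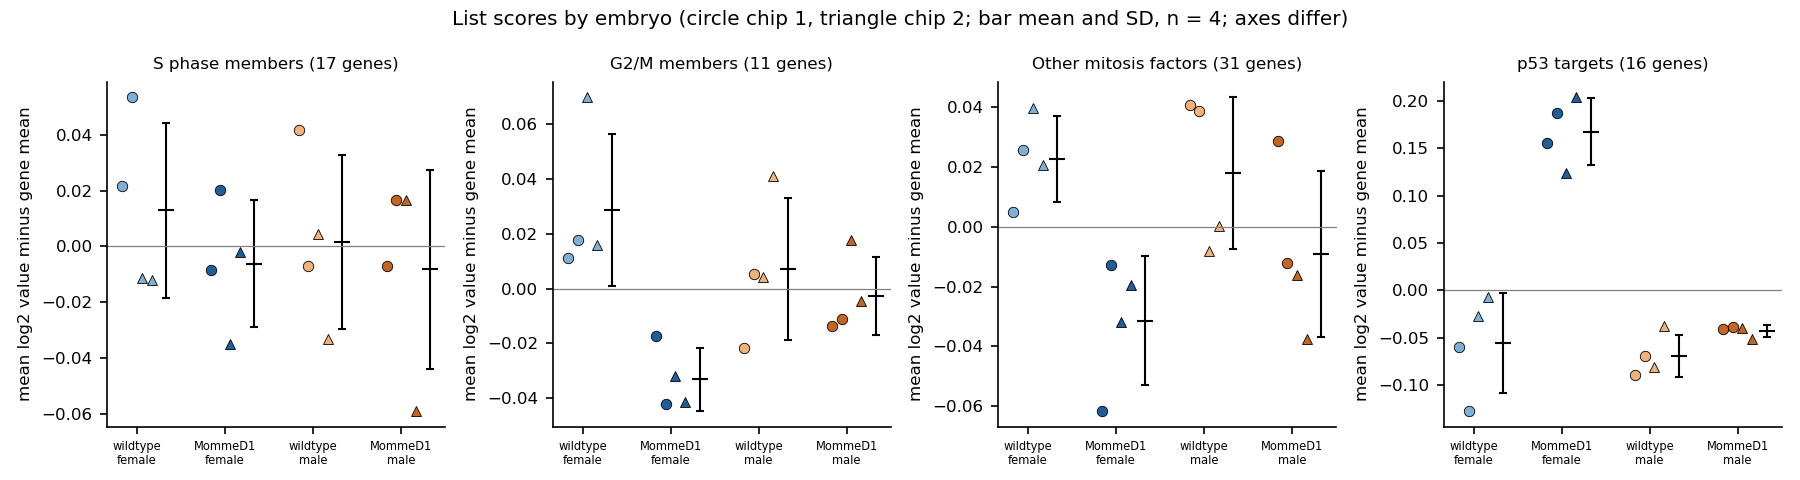
Score of each embryo (points; circles chip 1, triangles chip 2), the mean log2 value of a list minus each gene's mean over 16 arrays, for S phase members, G2/M members, other mitosis factors and p53 targets, with mean and SD of each group of 4 and axes that differ. In females the G2/M score is 0.01 to 0.07 in wildtype and -0.04 to -0.02 in MommeD1, while the S phase scores overlap.

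Few other genes of the same pathways passed, where 7.47% of all genes did in females and 11.0% over both sexes. Counts this small were not read as a difference from all genes. Of 32 further replication factors tested (of 46 listed), 1 (3.12%) passed in females, Rpa3, a subunit of the single-strand binding protein RPA, which was higher (0.20 ± 0.06, SE, limma adjusted p = 0.0478). Of 31 further mitosis factors tested (of 45 listed), 1 (3.23%) passed in females, the chromosome-arm motor Kif22, which was lower (-0.26 ± 0.06, SE, limma adjusted p = 0.0123). Over both sexes Ndc80, which ties kinetochores to microtubules (-0.18), and the kinase Melk (-0.18) also passed and were lower, which made 3 of 31 (9.68%). All 3 were lower, while 5.26% of all genes were called lower over both sexes. The score of these further mitosis factors did not overlap in females either (0.01 to 0.04 in wildtype, -0.06 to -0.01 in MommeD1, a difference of -0.05), and that of the replication factors did overlap. Of 13 tested G1 cyclins, their kinases and E2F family genes, none passed in females, and 1 (7.69%), Ccnd1, cyclin D1, passed over both sexes (0.13 ± 0.04, SE, limma adjusted p = 0.0472).

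Among genes that restrain division, 2 of the 9 tested (22.2%, of 19 listed) passed in females, Cdkn1a and Ccng1, both higher, against 7.47% of all genes. The median difference over the 9 was 0.02. Cdkn1a, which encodes the Cdk inhibitor p21, had log2 values of 8.10, 8.01, 8.25 and 8.30 in wildtype females and 8.97, 9.11, 8.92 and 9.44 in MommeD1 females. The groups lay far apart, and the difference was 0.95 ± 0.10 (SE, limma adjusted p = 3.59e-06). Cdkn1a is also a p53 target, and 6 of 16 tested p53 targets passed in females, all higher, against 7.47% of all genes. The list did not move together: 7 of the 16 were below 0 in females, and the median difference was 0.03. Over both sexes 4 passed as higher and 1, Mdm2, as lower (-0.14, limma adjusted p = 0.0464). As the study had already named Cdkn1a and Ccng1 on the same arrays, this list gives no independent evidence. The p53 target score was -0.13 to -0.01 in wildtype and 0.12 to 0.20 in MommeD1 females, and its part in the Plk1 and G2/M values was not tested. No p53 target passed in males.

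Transcripts of other cell types were read beside these values. The cardiac muscle score (7 of 9 listed genes tested) did not overlap in females, at -0.15 to -0.02 in wildtype and 0.01 to 0.24 in MommeD1, and Myl7, the atrial myosin light chain (0.56), and Actc1, cardiac actin (0.30), passed the test there. The postmitotic neuron score (8 of 11 tested) overlapped in females (-0.21 to 0.10 and -0.17 to 0.40). The primitive erythroid score (10 of 13 tested) overlapped too (-0.23 to 0.28 and -0.14 to -0.03), although Tfrc, the transferrin receptor that dividing cells also use, was lower (-0.38, limma adjusted p = 0.024). Of the 4 listed decidua genes 1 was tested, with overlapping groups in both sexes. In males the scores of these 4 lists overlapped between the genotypes, and the part of these cell types in the members' values was not tested.

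Several members had more than 1 probe, and these did not always give the same value. With each kept probe tested on its own, the 4 probes of Cdc20, the activator of the anaphase-promoting complex, had female differences of -0.12, -0.07, 0.10 and -0.23. The last passed (limma adjusted p over all kept probes = 0.0422), with 11.29, 11.28, 11.46 and 11.20 in wildtype against 11.17, 11.01, 11.14 and 11.02 in MommeD1 females, while the brightest probe, which stands for the gene, had 12.20, 12.20, 12.35 and 12.13 against 12.20, 12.14, 12.18 and 12.08. A call for Cdc20 therefore depends on the probe read. The brightest Mcm6 probe had 0.19 in females and the next 0.05, while the third kept probe, above 7 on 4 arrays, had -0.05. Both Cdc25c probes that were kept (a phosphatase that activates Cdk1) had -0.14 and -0.13. In males a dimmer Mcm4 probe had -0.30 ± 0.09 (SE, limma adjusted p over all kept probes = 0.213), against -0.07 for the brightest. The next Mcm6 probe had -0.01 in males, against 0.14 for the brightest. Plk1, Kif11, Bub1b, Ccne1 and Ccne2 had 1 probe each.

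Rfc4 differed more between the chips than between the genotypes. In a fit with a term for the chip, 1 of 28 members and 181 of 6999 genes (2.59%) differed between chips. The member was Rfc4, a subunit of the clamp loader, whose 8 arrays on chip 1 ran from 10.56 to 10.99 (median 10.71) and on chip 2 from 10.36 to 10.54 (median 10.46). The chips did not overlap, as in 0.271% of all genes, and the difference was -0.27 ± 0.05 (SE, limma adjusted p = 0.0164). The other kept Rfc4 probe was also lower on chip 2, by means of 7.06 against 7.29. Pcna, the sliding clamp that Rfc4 helps to load, ran from 7.70 to 8.10 on chip 1 and from 7.26 to 7.80 on chip 2 (-0.21 ± 0.07, SE, limma adjusted p = 0.101). Ccne1 was at -0.14 ± 0.04 (SE, limma adjusted p = 0.0604) on this contrast. Pcna was the dimmest member and the one with the widest range over wildtype arrays, 7.26 to 8.05. The brightest probe of Tyms, thymidylate synthase, was the steadiest, from 11.57 to 11.69 over all 16 arrays. Its SD within groups of 0.030 was the lowest of all 6999 genes, each read by its brightest probe. The other kept Tyms probe ran more widely, from 9.22 to 9.54. Mcm4, the brightest S phase member, ran from 13.14 to 13.43, and Cenpa, the brightest G2/M member, from 13.39 to 13.65. Cdc25c had the widest wildtype range of the G2/M members, 8.37 to 8.83. Each chip held 2 arrays of every group, and whether the chip difference varied between groups was not tested. In wildtype females Pcna ran from 7.74 to 8.05 on chip 1 and from 7.26 to 7.63 on chip 2. In MommeD1 males it ran from 7.70 to 7.75 and from 7.69 to 7.80.

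**Figure D5:**
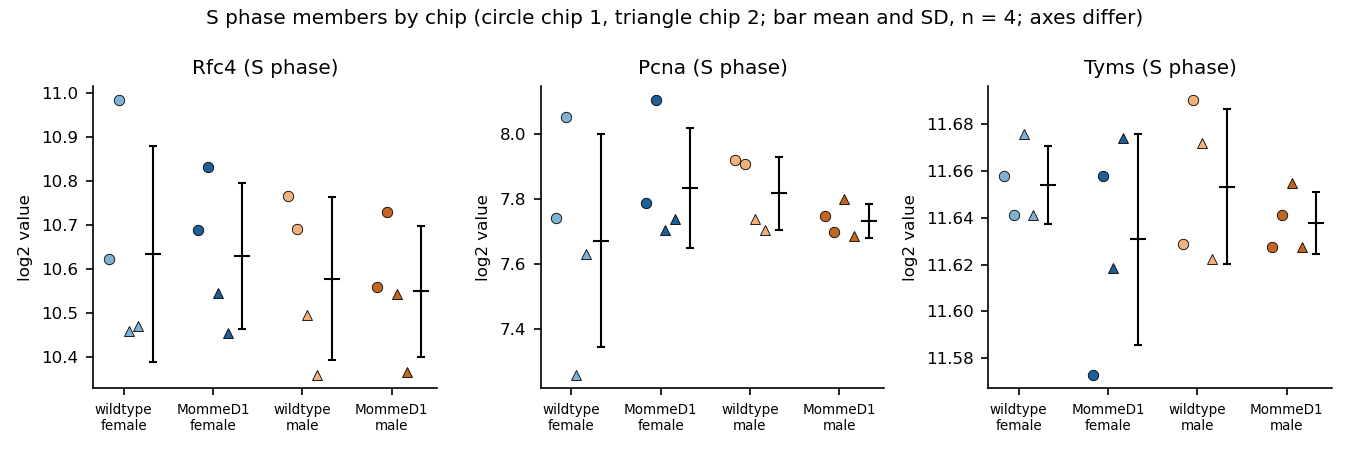
Normalised log2 values of Rfc4, Pcna and Tyms in each embryo (circles chip 1, triangles chip 2) with the mean and SD of each group of 4, on axes that differ and do not start at 0. Every chip 1 value of Rfc4 is at or above 10.56 and every chip 2 value at or below 10.54, while the brightest Tyms probe stays between 11.57 and 11.69.

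Promoter motif and genotype difference were set side by side as a description, over the 24 tested members with a window. The 10 with a CHR had a median female log2 difference of -0.08 (from -0.23 to 0.15), and the 14 without had -0.01 (from -0.18 to 0.19). In males the medians were -0.02 and 0.00, with overlapping ranges in both sexes. For the CCAAT box the female medians went the other way, -0.02 in the 16 members with it and -0.065 in the 8 without, and for the E2F site they were -0.03 in the 7 with it and -0.07 in the 17 without. Plk1, Kif11 and Bub1b, the lowest G2/M members, all have a CHR, and so does Aurka, the highest. As the CHR is in 11 of 15 G2/M windows and 2 of 17 S phase windows, motif and class cannot be told apart here.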

How the data were processed

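Per the labels, total RNA from 16 single embryos was hybridised to Illumina MouseRef-8 v2.0 BeadChips, and the authors processed the arrays with beadarray and limma. The deposited values used are log2 intensities, with nearly the same distribution on each array (sorted values differ by at most 0.0142), and the sources used here do not state how the background was corrected or the arrays normalised. One further table of 32 signal and detection columns under running numbers could not be tied to embryos and was not used. Embryos were grouped by genotype and karyotype from the labels, 4 per group, and p-values measure the spread between embryos. The number of arrays limits the precision.

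Of 25697 probes, 9785 were above 7 on at least 4 arrays; 559 of these had no gene, and the brightest kept probe stood for each of 6999 genes. A linear model with 4 group terms (limma 3.58.1, R 4.3.3, lmFit and eBayes, 12 residual degrees of freedom) gave the contrasts, with Benjamini-Hochberg adjustment, threshold 0.05 and the standard errors of the moderated fit. The script was tested on simulated data. The members and gene lists were chosen with earlier results of these data known. Members with values by array were Plk1, those past the threshold, the 2 lowest p-values per class and sex, and the brightest, dimmest and widest-ranging of each class; Bub1b, Mcm6, Aurka, Tpx2, Cdc20, Rfc4 and Tyms, the chip comparison and the median by motif were added after values were seen. Motifs were searched in RefSeq windows of 300 bases (GRCm38.p6). The alternatives were the filter, the probe rule, chip, replicate number, array weights, moderation, single-sex fits, median centring and leaving out each array; leaving out the 3 yolk-sac-rich arrays was chosen after seeing the data.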

Additional observations from a re-analysis of the deposited data

Results flagged for a closer look

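In 120 groups of 4 arrays (28 members and 2 scores, 4 groups each), 10 (8.33%) held 1 array whose gap to the nearest of the others was, as a share of the group's range, above Dixon's 95% critical value, and chance flags about 1 in 20 groups. Among S phase members these were Mcm5 in wildtype male 3 (13.27, the others 13.13 to 13.15), Mcm7 in MommeD1 male 3 (9.66, the others 9.47 to 9.499), Cdc6 in MommeD1 male 1 (10.34, the others 10.12 to 10.14), Cdt1 in wildtype female 4 (11.47, the others 11.69 to 11.71) and Ccne2 in wildtype male 3 (8.99, the others 8.74 to 8.76), all on the log2 scale. Among G2/M members they were Top2a in wildtype male 1 (11.22, the others 11.35 to 11.36), Aurka in wildtype male 4 (11.59, the others 11.38 to 11.40), Cdc25c in MommeD1 male 4 (8.62, the others 8.49 to 8.50) and Cenpa in wildtype female 1 (13.39, the others 13.55 to 13.57). The G2/M score of wildtype female 3 was 0.07 (0.0698), with the other wildtype females at 0.01 to 0.02, all still above each MommeD1 female. Wildtype male 3 was among the 3 yolk-sac-rich arrays and held 2 of these values.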

How the results depend on the processing

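The count of members called in females (1, Plk1) was 0 with no filter (34 members, 16593 genes), 0 within chip 1, 0 within chip 2 and 0 with the 3 yolk-sac-rich arrays left out. It was 2 with every kept probe tested (Cdc20 and Plk1), 2 with the replicate block (Kif11 and Plk1), and 3 with the stricter filter (Bub1b, Kif11, Plk1), with chip as a block (Ccne1, Kif11, Plk1) and with trended and robust moderation; leaving out 1 array gave 0 to 2, the 0 without MommeD1 female 2. Over both sexes (3) it was 0 with no filter, 0 within chip 1, 0 within chip 2, 1 (Ccne1) with the yolk-sac-rich arrays left out, 2 (Kif11 and Plk1) with arrays centred on the median, 4 (Mcm6 added) with trended and robust moderation, and 2 to 3 leaving out 1 array. In males, for the interaction and between wildtype sexes it was 0 under each alternative run. With no filter more genes were tested, and within a chip fewer arrays; for the others the cause was not tested.

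The median of S phase genes in females (-0.03) was -0.0719 with the yolk-sac-rich arrays left out and -0.0719 to -0.0288 leaving out 1 array, lowest without MommeD1 female 2. In males it was 0.0205 within chip 2 and -0.0259 to 0.0025 leaving out 1 array. With no filter, which adds the 6 dim G2/M members, the median of G2/M genes in females (-0.07) was -0.0107. It was -0.0383 within chip 1, -0.1104 within chip 2 and -0.0852 to -0.0457 leaving out 1 array, highest without MommeD1 female 4. In males it was 0.0284 within chip 1 and -0.03 to 0.0103 leaving out 1 array, highest without wildtype male 4. Plk1 stayed lower in females in each alternative (-0.26 to -0.21). The share of S phase windows with a CHR and a CCAAT box, and that of G2/M windows with an E2F site, fell to 0 in the 150 bases nearest the start.

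Whether replicate numbers pair the embryos was not settled. Of 24 same-numbered pairs, 9 correlated above 0.1 in their deviations (-0.39 to 0.40), and 4 of 16 arrays correlated best with their own number. No reference value was set beside these counts. With replicate number as a block, 616 genes passed in females, against 523 without it, and 887 against 770 over both sexes. With 4 embryos per group, the median SE of a member's difference in females was 0.066 on the log2 scale, and the 6 dim G2/M members were not measured.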
